A study of Mus musculus with 3 samples.

Results

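The Myog-positive differentiating myocytes of regenerating mouse tibialis anterior muscle were examined, and 314 of 35247 kept cells belonged to them. They were chosen on raw UMIs (unique molecular identifiers, 1 per captured transcript) from cells with at least 500 detected genes and under 10% mitochondrial UMIs. A member had at least 2 UMIs of Myog, none of Ptprc or Pecam1 and fewer than 2 of Pdgfra, the last 3 being genes of leukocytes, endothelium and fibro/adipogenic progenitors (FAPs). They were compared with 596 progenitors, which had under 2 UMIs of Myog and at least 3 UMIs summed over Pax7, Myf5 and Cdh15 within the same limits on the other lineages. Because Myog and these 6 other genes chose the cells, their levels and those of every gene between the 2 classes are given as a description, with no test. The cells came from 3 libraries of C57/BL6J mice, all injured by barium chloride and dissociated 4 days later. The groups were young PBS (3 to 4 months of age), old PBS (24 to 26 months) and old rMETRNL (24 to 26 months), the treatments being 3 intramuscular injections of saline or of recombinant meteorin-like protein after the injury. Each group was 1 library that pooled the muscles of 3 mice, so no comparison between groups has a replicate, and every interval below is a 95% interval of counting error only. Where 3 values of a gene, list or class follow each other they are in the order young PBS, old PBS, old rMETRNL.

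Myogenin, the product of Myog, is a basic helix-loop-helix transcription factor of the MyoD family that turns on as an activated muscle stem cell stops dividing and commits to fuse. In regenerating muscle, satellite cells marked by Pax7 expand as myoblasts, and the Myog-positive myocytes that follow express fusion proteins of the cell membrane, an embryonic set of sarcomere genes and the fetal form of the acetylcholine receptor. Factors of this family bind E-boxes, whose letters are CANNTG, and the form CAGCTG is common at muscle genes.

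The promoters below are shown because they carry the regulator that defines these cells and a pair of receptor genes that were higher in them. Each is the 250 bases before the RefSeq start (GRCm38.p6), printed 5′ to 3′ on the gene's own strand, with E-boxes of the letters CANNTG in capitals. The Myog promoter (chr1:134289754-134290003, plus strand) is followed by those of Chrng (chr1:87205561-87205810, plus strand) and Chrna1 (chr2:73580339-73580588, minus strand).
Myog: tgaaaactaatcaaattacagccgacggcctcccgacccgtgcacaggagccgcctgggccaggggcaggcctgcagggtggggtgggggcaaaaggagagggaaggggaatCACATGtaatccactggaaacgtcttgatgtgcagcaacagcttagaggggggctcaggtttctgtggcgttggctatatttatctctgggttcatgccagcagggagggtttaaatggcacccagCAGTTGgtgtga
Chrng: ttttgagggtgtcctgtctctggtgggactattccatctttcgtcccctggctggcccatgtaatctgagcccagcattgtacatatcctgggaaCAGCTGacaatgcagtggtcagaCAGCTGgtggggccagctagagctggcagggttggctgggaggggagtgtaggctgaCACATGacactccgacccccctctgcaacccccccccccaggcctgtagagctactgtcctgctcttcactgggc
Chrna1: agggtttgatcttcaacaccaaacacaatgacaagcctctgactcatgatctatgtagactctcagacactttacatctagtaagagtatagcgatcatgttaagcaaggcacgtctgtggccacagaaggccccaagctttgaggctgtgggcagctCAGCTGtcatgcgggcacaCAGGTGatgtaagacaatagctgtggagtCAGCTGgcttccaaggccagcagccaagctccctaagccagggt
The Myog window held 2 E-boxes and no CAGCTG. The Chrng window held 3 E-boxes, of which 2 were CAGCTG, beginning 155 and 132 bases before the start. The Chrna1 window also held 3, of which 2 were CAGCTG, at 92 and 44 bases before the start. These letters read the same on both strands.

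Gates and libraries were examined before any level was read. Kept cells with at least 2 UMIs of Myog numbered 244, 97 and 203, and the limits on the other lineages removed 37.3%, 51.5% and 43.8% of them, mostly through Ptprc (79, 45 and 80 cells). Of the cells removed for Ptprc, 16, 7 and 13 carried exactly 1 UMI of it. The cells left numbered 153, 47 and 114, with median depths of 41413, 36785 and 39354.5 UMIs. These depths were above those of the progenitors (26446, 25392 and 28688.5) and of the libraries as a whole (15609, 13907.5 and 14688.5). Of the 314 cells, 12 had a barcode that also occurred in another library. In 18 pairings of such a cell with another library, 17 had the other barcode under 1000 UMIs, and 1 young PBS member of 896 UMIs shared the barcode of the deepest old rMETRNL member, which had 212099. The 10 deepest cells held 14.8%, 39.7% and 23.1% of the UMIs of the Myog-positive cells. With 47 cells in old PBS, 10 cells were a larger part of that class than in the other libraries. Markers of other lineages were low but not absent. The 12 macrophage markers summed to between 192 and 246 CPM (UMIs of a gene or list per 1000000 UMIs of the class) in the Myog-positive cells, against 27908.5 to 30173 in immune cells. In old rMETRNL 1 cell held 5.18% of its UMIs in them, where the median cell had 0.0211%. The 10 FAP markers summed to 1025, 2216 and 516 CPM, against 40868 to 46683 in FAPs, and none of them was at 0. In old PBS 1 cell held 7.76% of its UMIs in FAP markers, where the median cell had 0.0486%. The 7 endothelial markers summed to between 6.89 and 17.1 CPM, with Kdr at 0 in young PBS, and the 4 T and NK cell markers to 0.634 CPM or less, with 2 or 3 of the 4 at 0. Acta1, the fibre actin, was also seen in immune cells, at 18.9, 136 and 37.9 CPM, and highest in old PBS. The part of these markers in the results was not tested, except where values without such cells are given.

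Myog-positive cells made up 1.34% (1.14 to 1.57%), 0.425% (0.312 to 0.565%) and 0.892% (0.736 to 1.07%) of kept cells. The share in old PBS was 0.317 of that in young PBS (0.223 to 0.442), and the share in old rMETRNL was 2.10 times that in old PBS (1.48 to 3.01) and 0.665 of that in young PBS (0.517 to 0.852). When 1000 genes and a mitochondrial share below 5% were required of each cell, which left 61, 13 and 52 members, the first ratio was 0.246 (0.124 to 0.453) and the second 3.24 (1.74 to 6.48). Progenitors were ordered alike, at 2.04%, 1.06% and 1.92%. Among the cells of both classes together the Myog-positive share was 39.6%, 28.7% and 31.7%. The ratios of these shares were 0.723 for old over young PBS (0.510 to 1.01) and 1.10 for old rMETRNL over old PBS (0.780 to 1.59), and both intervals included 1. When all cells were thinned to 2000 UMIs and 1 UMI of Myog sufficed, the ratios over kept cells were 0.477 (0.358 to 0.630) and 1.44 (1.07 to 1.94).

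**Figure D1:**
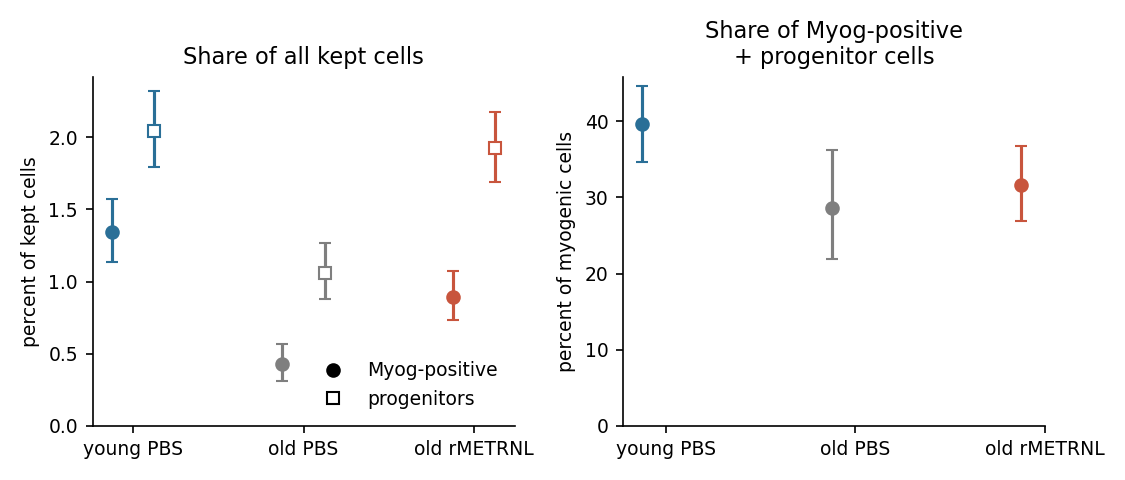
Share of Myog-positive cells (filled circles) and progenitors (open squares) in each library, in percent of kept cells (left), and the Myog-positive share of both classes together (right), with 95% binomial intervals. Old PBS is lowest on the left at 0.425%, while the intervals of the shares on the right overlap.

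The label was checked against Mymk, Myh3 and Actc1, which the rule did not use. Mymk encodes myomaker, the membrane protein needed for myoblast fusion, Myh3 encodes embryonic myosin heavy chain, and Actc1 encodes the cardiac actin used by developing muscle. All 3 were detected in 39.2%, 31.9% and 23.7% of the Myog-positive cells, while none of them was detected in 12.4%, 31.9% and 21.9%. The cells without any had medians of 32083, 13057 and 31551 UMIs, against 46139.5, 46761 and 31547 for those with all 3. At the edge of the rule, the 16 young PBS cells with exactly 2 UMIs of Myog had 31.9 CPM of Mymk, and the 77 otherwise admissible cells with 1 UMI had 16.4. In cells with 10 or more UMIs of Myog, of which there were 99 in young PBS, Mymk stood at 579 CPM, at 413 in the 24 such cells of old PBS and at 370 in the 60 of old rMETRNL. Most cells at the edge of the rule thus lacked Mymk, which had a UMI in 37.5%, 22.2% and 23.8% of the cells with exactly 2 UMIs of Myog and in 96.0%, 87.5% and 96.7% of those with 10 or more. Of the members, 82.4%, 76.6% and 74.6% also reached the progenitor sum of 3 UMIs over Pax7, Myf5 and Cdh15. Myog itself, at chr1:134289989-134292548, had 1717 CPM (1686 to 1749), 1351 (1294 to 1409) and 999 (970 to 1029).

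Against the progenitors of the same library, 325 of 10447 genes with at least 100 UMIs were at least 2-fold higher in the Myog-positive cells of all 3 libraries (3.11% of genes) and 319 were at least 2-fold lower in all 3 (3.05%). The genes of the rule were not counted. Across all genes the median log2 ratio, averaged over the libraries, was -0.12. In the promoters, among the 179 higher genes with a single RefSeq window, 25.7% held CAGCTG, against 11.3% of the 6577 such windows among all genes tested and 16.8% of the 190 windows of lower genes. Any CANNTG was held by 69.8% of the windows of higher genes, 54.5% of all and 53.7% of those of lower genes. CACGTG, an E-box of other factor families, was held by 6.70% of the windows of higher genes, 8.79% of all and 6.84% of those of lower genes.

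Of the 19 regulators of myogenesis tested, 9 were called higher and 2 lower, with a median of 0.45. Myod1, the commitment factor upstream of Myog, was at 497, 443 and 383 CPM in the Myog-positive cells and at 48.3, 65.7 and 70.2 in the progenitors. Mef2c, which acts with the MyoD family at muscle promoters, was at 92.7, 55.8 and 48.4 CPM against 8.86, 4.2 and 7.7. Rbm24, a splicing factor of striated muscle, was at 309, 327 and 274 CPM against 28.8, 35.1 and 23.7. The Myog-positive value was above the progenitor value in every library for these genes, and Mef2a, Mef2d, Hes6, Smyd1, Sox6 and Sox8 were the others called higher. Msc and Heyl, a pair of helix-loop-helix repressors, were the genes called lower, Heyl standing at 19.8, 31.7 and 29.0 CPM against 104, 85.2 and 74.1. Myf6, another member of the MyoD family, was at 5.71 CPM or less in either class. Id1, Id2 and Id3, inhibitors of E-box factors, were not called, with mean log2 ratios from -0.28 to 0.45.

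The fusion proteins were among the genes with the highest ratios. Mymx encodes myomixer, the micropeptide that works with myomaker, and it was at 380, 296 and 241 CPM in the Myog-positive cells and at 3.55, 2.10 and 2.44 in the progenitors. Mymk (chr2:27061636-27072179) was at 452, 306 and 253 CPM against 16.1, 9.3 and 11.4, a ratio of 28.1 in young PBS (23.4 to 34.1), 32.9 in old PBS (22.8 to 48.9) and 22.2 in old rMETRNL (17.9 to 27.8). The intervals of the 3 Mymk ratios overlapped. Of the 13 fusion and membrane genes tested, 5 were called higher and none lower, the others being Cav3, the caveolin of muscle, Tmem182 and Dysf. Adhesion and membrane genes that myoblasts already use differed among themselves. Cdh2 and Cd81 were near the progenitor level, with mean log2 ratios of 0.11 and 0.07. Jam3 was at 85.9, 86.2 and 54.7 CPM against 42.1, 45.9 and 38.6. Cd9 was at 133, 178 and 153 CPM against 237, 229 and 217. The list's median was 0.75.

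Sarcomere genes gave the broadest difference, with 30 of 34 called higher, none lower and a median of 3.33. The list summed to 19484, 17981 and 12868 CPM in the Myog-positive cells, against 3747, 4087 and 3592 in the progenitors. Actc1 was at 854, 681 and 267 CPM against 3.68, 4.5 and 2.69, and Myh3 at 681, 535 and 363 CPM against 12, 3 and 2.95. Acta1, the actin of the mature fibre, was at 2637, 2185 and 1301 CPM against 72.0, 295 and 54.5, and its ratio was lowest in old PBS, where immune cells also held most of it. The 4 genes not called were Tpm1, Des, Mybpc1 and Tcap. Des, the intermediate filament that myoblasts already make, was at 1258, 1353 and 1221 CPM against 781, 787 and 756. Ratios rested on the cells that expressed these genes strongly. In each library 5 cells, of 153, 47 and 114, held 34.3%, 81.4% and 63.2% of the Myh3 UMIs. For Actc1 the shares of 5 cells were 34.9%, 89.5% and 68.7%.

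Among myosin heavy chain UMIs of the Myog-positive cells, the embryonic gene Myh3 made up 86.7% (85.8 to 87.6%), 91.3% (89.3 to 93.1%) and 87.1% (85.5 to 88.6%). The perinatal gene Myh8 gave 6.75%, 2.49% and 4.31%, and the adult fast gene Myh1 gave 5.32%, 2.60% and 8.20%. Myh4, another adult fast gene, was at 9.04, 20.9 and 1.35 CPM, but immune cells held 0.546, 20.7 and 3.1 CPM, so in both old libraries it was at or below the background level. In troponin I the slow form Tnni1, used early in development, had 43.6%, 31.1% and 29.1% of UMIs in the Myog-positive cells. Its share was 8.12%, 5.41% and 11.3% in the progenitors and 8.58%, 3.17% and 6.18% in immune cells. The fast form Tnni2 was at 22.0, 58.0 and 25.3 CPM in immune cells, highest in old PBS, and its part in these shares was not tested. Adult fibre genes gave 8 of 11 called higher with a median of 1.73, including Eno3, Atp2a1 and Actn3. Ckm, the creatine kinase of fibres, was not called because its old PBS ratio was below 2-fold, with 131, 179 and 59.2 CPM against 18.8, 95.1 and 10.01.

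Of 9 genes of the neuromuscular junction tested, 4 were called higher and none lower. The fetal receptor subunit gene Chrng was at 146, 111 and 102 CPM in the Myog-positive cells against 29.5, 24 and 22.4 in the progenitors, and Chrna1, the ligand-binding subunit, at 804, 750 and 630 CPM against 290, 202 and 282. Both promoters are printed above. Chrnd, another subunit, and Dok7, the activator of MuSK, were the others called higher. Chrne, the adult subunit, was at 0.634 CPM or less. Chrnb1, a further receptor subunit, was not called, at 52.7, 59.6 and 51.1 CPM against 31.8, 28.5 and 34.9, and the scaffold gene Rapsn and the kinase gene Musk had mean log2 ratios of 0.48 and 0.55, while the median of the list was 0.78. In the triad, which couples membrane voltage to calcium release, 12 of 15 genes were called higher with a median of 1.95. Casq2, a calcium-binding protein of the reticulum, was at 70.9, 40.6 and 20.9 CPM against 0.818, 0.300 and 0.385, and Ryr1, the release channel, at 91.8, 101 and 68.0 CPM against 25.5, 29.1 and 17.6. Ryr3 had a mean log2 ratio of -0.58.

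Inhibitors of the cell cycle and cycle genes did not divide the classes in the same manner. Cdkn1c, encoding p57, was at 1702, 1478 and 765 CPM against 346, 266 and 202, a ratio of 4.93 in young PBS (4.72 to 5.15), 5.55 in old PBS (5.13 to 6) and 3.78 in old rMETRNL (3.56 to 4.02). Cdkn1a, encoding p21, was at 663, 579 and 616 CPM against 181, 228 and 223, and Rb1 at 63.1, 50.7 and 56.7 against 17.9, 21.6 and 20.3. These 3 were the genes called higher of 14 linked to cycle exit, and none was lower, with Cdkn1b (p27) at 36.5, 38.1 and 39.2 CPM against 67.8, 60.0 and 61.6. None of the 28 cell cycle genes was called either way. Their median log2 ratio was -0.12, -0.83 and -0.10, and all 28 were below 0 in old PBS. Cells were next thinned to 2000 UMIs, and the expected share with at least 2 UMIs over the 28 genes was taken. It was 58.3% (49.7 to 66.5%), 36.9% (22.9 to 52.8%) and 61.1% (50.9 to 70.5%) of Myog-positive cells. Progenitors stood at 56.7%, 50.4% and 56.3%, and immune cells at 20.1%, 20.4% and 22.1%. Without thinning the share of Myog-positive cells was 92.8%, 87.2% and 89.5%, and thinning left out 11, 3 and 11 cells. The interval of old PBS overlapped that of each of the other libraries.

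Among genes of the satellite cell and of Notch signalling, 3 of 15 were called lower and none higher, with a median of -0.72. Notch3 was at 21.4, 22.2 and 20.7 CPM against 94.4, 121 and 78.8, and Vcam1 at 90.2, 106 and 106 against 199, 281 and 219. Chodl, a lectin of quiescent satellite cells, was the remaining gene of the 3, at 2.76, 0 and 0.225 CPM against 19.2, 33 and 16.3 in the progenitors. Jag1, a Notch ligand, was in the 10 lowest ratios among genes with at least 400 UMIs. It was at 2.3, 4.44 and 2.93 CPM against 19.8, 22.5 and 19.1. Itga7 and Dag1, receptors for laminin that fibres keep, had 184, 173 and 185 CPM and 425, 522 and 477 CPM, with mean log2 ratios of 0.12 and -0.11.

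Some genes called higher are better known from other cell types. Scx, a transcription factor of tendon, was at 174, 133 and 159 CPM against 26, 21 and 32.5, and had a UMI in 130 of 153, 33 of 47 and 85 of 114 cells. The other tenocyte markers Tnmd and Fmod were at 14.4 CPM or less, and Thbs4 had 56.1% of its young PBS UMIs in 1 cell. Acta2, the smooth muscle actin, was at 723, 899 and 475 CPM against 176, 123 and 109, while among the 5 other smooth muscle and pericyte markers Myh11 was without a UMI in all 3 libraries and Kcnj8 was at 0.225 CPM or less. Tagln was at 22.2, 16.5 and 27.2 CPM against 34.1, 27.9 and 19.4, Rgs5 at 1.53, 1.27 and 4.95 against 1.36, 13.5 and 3.59, and Abcc9 at 3.37, 8.24 and 4.05 against 0, 5.1 and 0.513. Among small heat shock proteins of muscle, Hspb3, Hspb7, Hspb8 and Cryab were called higher, 4 of 11 chaperones with none lower, whereas Hspa8 and Hsp90aa1 were near the progenitor level. The brain creatine kinase Ckb and the muscle phosphoglycerate mutase Pgam2 were higher and the hexokinase Hk2 lower among 16 energy genes. Of 11 imprinted genes, H19 was called higher and Plagl1 lower. Among genes with at least 400 UMIs, Lmod2, Mybph, Smim5 and Lmod3 joined the genes above in the 15 highest ratios. Itih5, Pxdc1, Timp3, Cited1, Cd109, Mgp and Igf2bp2 were in the 10 lowest. Metrnl, the gene of the injected protein, was at 11, 10.1 and 11 CPM and called neither way, and Kit had no UMI in young PBS or old PBS and 0.675 CPM in old rMETRNL.

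**Figure D2:**
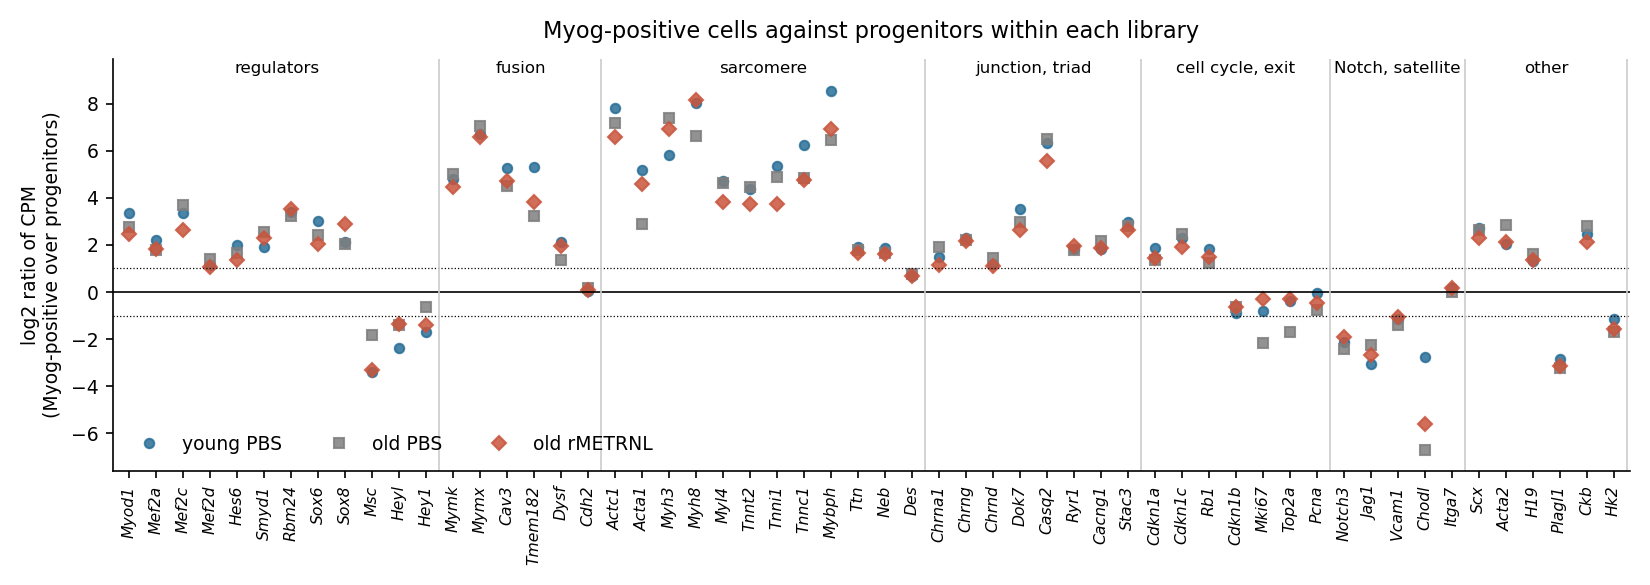
Log2 ratio of CPM in Myog-positive cells over progenitors, 1 point per library and gene, with 0.5 added to each count, grouped by role (dotted lines mark 2-fold). The fusion and sarcomere genes shown, other than Cdh2 and Des, lie above 2-fold in all 3 libraries, while Notch3, Jag1, Msc and Plagl1 lie below 0.

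The Myog-positive cells varied among themselves. The 34 sarcomere genes took a median of 1.07% (from 0.106 to 13.9%), 0.895% (0.0474 to 23.7%) and 0.744% (0.14 to 9.25%) of a cell's UMIs, against medians of 0.288%, 0.255% and 0.297% in the progenitors. Cells above 5% numbered 16 of 153, 8 of 47 and 7 of 114. In old PBS 8 members lay under 5000 UMIs and held 8.93% of their UMIs in these genes, against 1.70% in the 39 deeper cells. In those 8 the fibre actin Acta1 was at 22619.5 CPM and Mymk at 45.6, against 1897 and 309 in the deeper cells, and 7 of the 8 had under 1% mitochondrial UMIs. Shallow members of young PBS and old rMETRNL (17 in each) held 4.19% and 2.67% of UMIs in sarcomere genes, against 1.94% and 1.28% in deeper cells. Of these, 12 and 9 had under 1% mitochondrial UMIs.

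**Figure D3:**
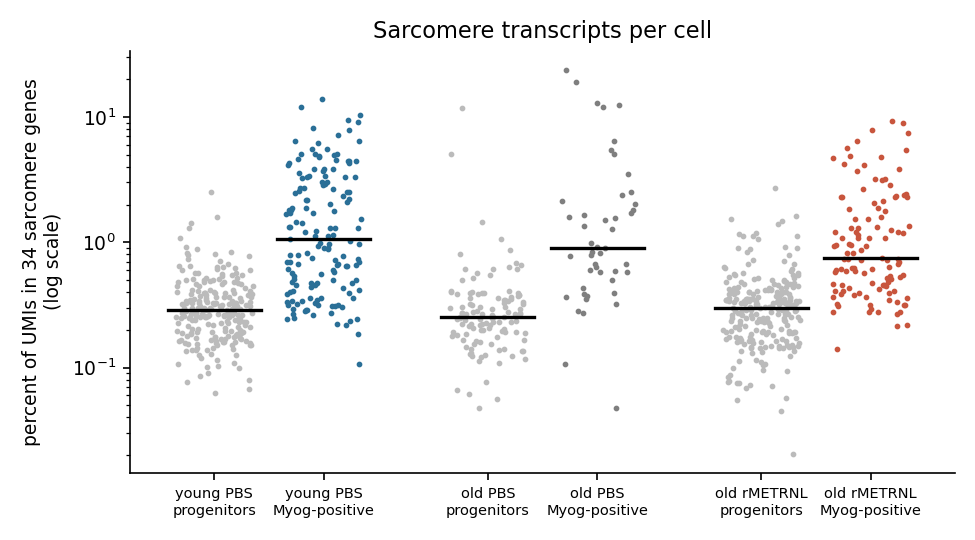
Percent of each cell's UMIs in the 34 sarcomere genes on a log scale, for progenitors (light grey) and Myog-positive cells (coloured) of each library, 1 point per cell with the median as a bar. The medians of the Myog-positive cells lie at 1.07%, 0.895% and 0.744%, and their ranges run down into those of the progenitors.

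The cells of each library were then cut into terciles by that percentage, the lower one of young PBS ending at 0.596% and the upper one beginning at 2.20%. These are parts of a continuous range and not types. From the lower to the upper tercile Myog went from 371 to 3272 CPM in young PBS, from 454 to 2337 in old PBS and from 326 to 2211 in old rMETRNL. Mymk followed with 79.5 to 1027, 75.4 to 728 and 51.5 to 574 CPM, and Mef2c with 6.69 to 265, 1.80 to 180 and 4.21 to 144. Myod1 differed less between terciles, from 426 to 566, from 413 to 360 and from 330 to 468 CPM. The 28 cell cycle genes summed to 3595 CPM in the lower tercile and 1174 in the upper in young PBS, 2688 and 264 in old PBS and 4456 and 1836 in old rMETRNL, so the lower tercile was higher in every library. Cdkn1c was at 214 and 3115 CPM, 1007 and 1900, and 130 and 1660. The lower tercile of old PBS, the highest of the 3 in Cdkn1c, held 16 cells. Pax7 was at 27.6 CPM in the lower and 3.58 in the upper tercile of young PBS, at 35.9 and 22.2 in old PBS and at 29.5 and 13.1 in old rMETRNL. When cells were divided by the cell cycle genes instead, those more likely than not to keep 2 such UMIs at 2000 had less Myog in every library (989 against 3106 CPM, 930 against 1639 and 637 against 1959) and less Cdkn1c (1031 against 2984, 979 against 1828 and 472 against 1556). Cycle transcripts and Myog were nonetheless found under the same barcodes, 79, 15 and 62 of which were on the cycling side. These had median depths of 52420, 41179 and 48431.5 UMIs, against 35168, 33777 and 29028 on the other side. Of all members, 12, 1 and 9 had doublet scores among the highest of their library. A barcode that held 2 myogenic cells would pass the lineage limits, and such barcodes could not be told apart.

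**Figure D4:**
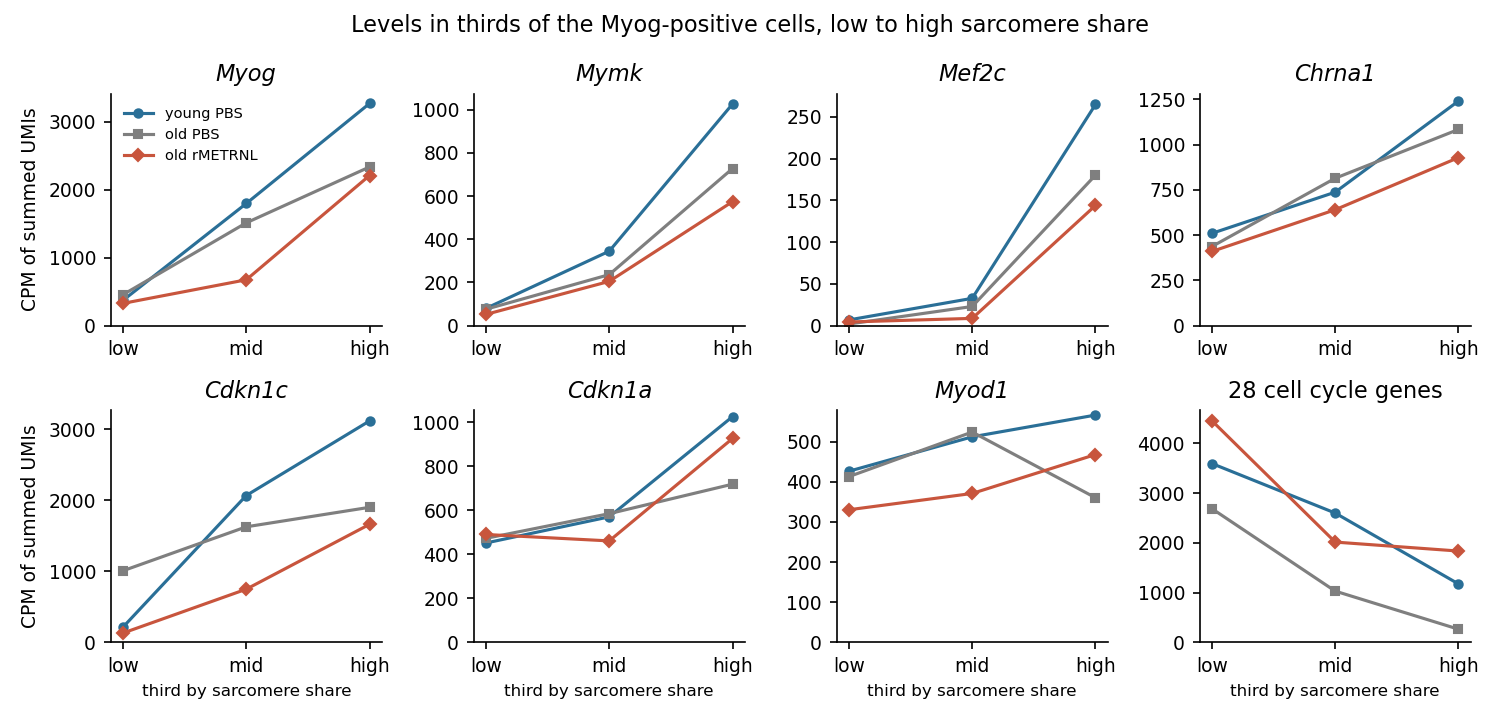
Summed-UMI level (CPM, linear axes from 0) of 7 genes and of the 28 cell cycle genes in terciles of the Myog-positive cells, ordered by sarcomere share within each library. Myog, Mymk and Mef2c are highest and the cell cycle genes lowest in the upper tercile of every library.

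Between the libraries, old PBS was set against young PBS in the Myog-positive cells. Of 8160 genes with at least 100 UMIs, 146 (1.79%) were at least 2-fold higher and 144 (1.76%) at least 2-fold lower in old PBS. Cell cycle genes were lower, with 10 of 28 past 2-fold, all 28 below 0 and a median log2 ratio of -0.75, while in the progenitors the median was 0.02 and none of the 28 was past 2-fold, beside 0.598% higher and 1% lower of all 9367 genes tested there. Top2a, which untangles replicated DNA, was at 245 CPM in young PBS and 106 in old PBS, a ratio of 0.432 (0.366 to 0.507). Mki67, the proliferation marker, was at 123 and 57.1 CPM, a ratio of 0.463 (0.368 to 0.576), and 72.2% of its old PBS UMIs were in 5 cells. Pcna had a ratio of 0.693 (0.578 to 0.826), the replication gene Rrm1 0.545 (0.442 to 0.665) and the mitotic cyclin gene Ccnb2 0.889 (0.719 to 1.09). The list's direction was lost when cells needed 1000 genes and under 5% mitochondrial UMIs, a setting that left 13 cells in old PBS and gave a median of 0.11. Without barcodes found in another library, which took 9 cells from young PBS and 1 of 110867 UMIs from old PBS, the median was -1.11.

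For muscle genes the medians with age were nearer 0. The sarcomere median was -0.03, with 1 of 33 genes past 2-fold higher and 1 lower, and the medians of fusion genes (-0.17), regulators (0.00) and triad genes (-0.20) lay below or at 0, beside -0.04 over all genes. The median of adult fibre genes was 0.16, with 6 of 9 above 0 and 1 past 2-fold in each direction. Sarcomere genes went both ways. In old against young PBS, Tnni1 was at 277 against 432 CPM, Tnnt2 at 615 against 887 and Tnnc1 at 166 against 253. Tnnt3 was at 984 against 798 CPM and Myl1 at 690 against 585. In immune cells the sarcomere list summed to 752 against 225 CPM and the adult fibre list to 169.5 against 33.6. The part of this in the medians was not tested. Tcap, the titin cap of the fibre Z-disc, was the sarcomere gene past 2-fold higher, at 36.1 against 5.21 CPM. It was also higher in the progenitors and the immune cells of old PBS. The log2 ratios there were 3.41 and 3.39, against 2.79 in the Myog-positive cells. Myh8 was the one past 2-fold lower, at 14.6 against 53.0 CPM. Of 12 genes of the dissociation stress response, 5 were past 2-fold higher, among them Fos at 304 against 111 CPM and Atf3 at 81.2 against 17.6. The genes with the 3 highest ratios were carried by 1 cell. Has1, which makes hyaluronan, was at 91.3 against 2.3 CPM, Il6 at 65.3 against 1.84 and the chemokine gene Cxcl9 at 53.9 against 1.23, and the old PBS cell with the most FAP marker UMIs held 91.0%, 99.0% and 90.6% of these UMIs. Without the 9 cells over 1% of FAP marker UMIs (3, 1 and 5 in the libraries), 85 genes rather than 146 were higher, and the FAP marker median went from 1.80 to -0.06. The lowest ratios were those of Slc16a3, a lactate exporter, at 2.54 against 30.2 CPM (0.0841, 0.0227 to 0.219) and Ankrd37, a hypoxia-responsive gene, at 1.9 against 22.1 CPM (0.0863, 0.0176 to 0.257). Both were spread over many young PBS cells, 62 and 60 of 153, and over 4 and 3 of 47 in old PBS. Both genes were lower in other cells of old PBS too, Slc16a3 with log2 ratios of -2.77 in the progenitors and -0.65 in immune cells and Ankrd37 with -1.20 and -1.63.

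Old rMETRNL was set against old PBS, the library that the age contrast also used, so the 2 contrasts are not independent. Of the same 8160 genes, 202 (2.48%) were at least 2-fold higher and 174 (2.13%) at least 2-fold lower in old rMETRNL. Cell cycle genes were higher, with 12 of 28 past 2-fold, 27 above 0 and a median of 0.79, against 0.19 and none past 2-fold in the progenitors, where 0.726% of all genes tested were higher. When cells needed 1000 genes and under 5% mitochondrial UMIs, the median was 0.18. Genes of the dissociation stress response were lower in the same cells, with 4 of 12 past 2-fold, 11 below 0 and a median of -0.70, and their part in the result was not tested. Top2a was at 326 against 106 CPM, a ratio of 3.08 (2.62 to 3.64), Mki67 at 191 against 57.1 CPM, a ratio of 3.35 (2.69 to 4.21), and Ube2c, which marks mitosis, at 286 against 85.6 CPM. Kif18a, Aspm, Kif11 and Nusap1, all of the mitotic spindle, were among the 10 genes with the highest ratios, and Kif18a had 50 UMIs in 20 cells against 2 in 1 cell of old PBS.

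Sarcomere genes were lower in old rMETRNL than in old PBS, with 7 of 33 past 2-fold, 30 below 0 and a median of -0.75. Actc1 was at 267 against 681 CPM, a ratio of 0.392 (0.361 to 0.427), and 51.0% of its old PBS UMIs were in 1 cell. Myl4, the embryonic light chain, was at 162 against 381 CPM, and Myoz2, a Z-disc protein, at 6.3 against 25.4. Triad genes had 4 of 14 past 2-fold lower with a median of -0.52, and adult fibre genes 4 lower and 1 higher of 9 with a median of -0.89, whereas the medians of regulators (-0.21), fusion genes (-0.19) and junction genes (-0.13) lay nearer 0. Fibre genes were also lower in the other cells of old rMETRNL. In the progenitors 4 of 20 sarcomere genes and 2 of 5 adult fibre genes were past 2-fold lower, beside 0.705% of all genes tested in that class, with medians of -0.21 and -0.97, and in immune cells the sarcomere list summed to 312 against 752 CPM and the adult fibre list to 58.5 against 169.5 CPM. With 1000 genes and under 5% mitochondrial UMIs required, the sarcomere median was 0.45 and the triad median 0.14. Il6, Has1, Mfap5 and Dcn were among the 10 lowest ratios, and these are the genes that the FAP-marker-rich old PBS cell carried. Without such cells 105 genes rather than 174 were lower.

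Old rMETRNL against young PBS had fewer genes past 2-fold, 27 higher (0.331%) and 95 lower (1.16%). The cell cycle median was 0.11 with none of 28 past 2-fold. Sarcomere genes were lower, with 14 of 33 past 2-fold, none higher and a median of -0.91, and triad genes had 5 of 14 lower with a median of -0.54. In the progenitors 2 of 20 sarcomere genes were past 2-fold lower and none higher, beside 0.48% lower and 0.299% higher of all genes tested there, with 14 of 20 below 0 and a median of -0.33, and none of 10 triad genes was past 2-fold, with a median of -0.06. Actc1 was at 267 against 854 CPM and Mymk at 253 against 452.

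**Figure D5:**
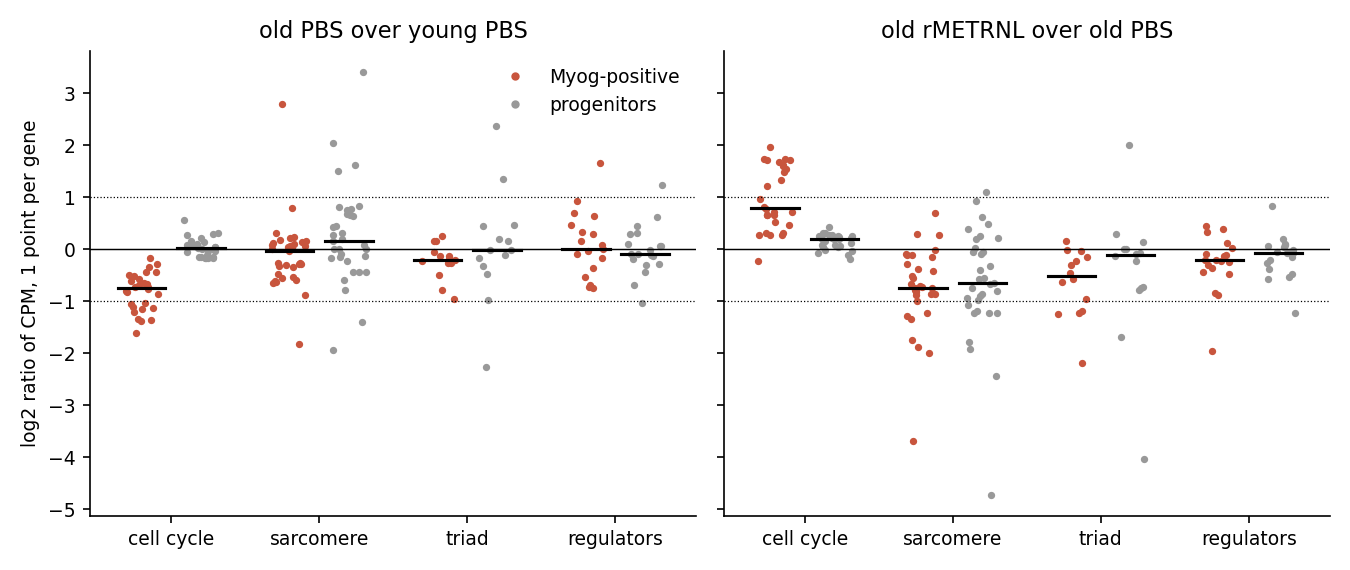
Log2 ratio of CPM between libraries for genes of 4 lists, 1 point per gene with the median as a bar, in Myog-positive cells (red) and, for the same genes, progenitors (grey); dotted lines mark 2-fold. All 28 cell cycle genes of the Myog-positive cells lie below 0 for old over young PBS (median -0.75) and 27 of 28 above it for old rMETRNL over old PBS (0.79), and the progenitor medians are 0.02 and 0.19.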

How the data were processed

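The deposited files hold raw UMI counts per gene and barcode, made by the authors with the 10x Genomics platform and Cell Ranger (5.0.0 per the file headers; the labels' processing notes also name 3.1.0) on mm10. The matrices held 38748 barcodes and between 179295668 and 228966697 UMIs each. Of the 32285 features, 78 shared a symbol with another and were summed. Gene coordinates are from GENCODE M21 (GRCm38), in which 32235 IDs were found.

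Within each library the UMIs of a class were added up and scaled to CPM. Log2 ratios had 0.5 added to each count. Genes needed 100 UMIs, and past 2-fold counted as a difference. With 1 library per group no p-value was computed. Intervals are Clopper-Pearson for shares, exact Poisson for levels, and conditional exact for ratios. The cell cycle share is averaged over all possible thinnings (hypergeometric) rather than taken from 1 draw. Immune cells had at least 2 UMIs of Ptprc and no Myog, Pdgfra or Pecam1, and FAPs at least 2 of Pdgfra with none of the others. No doublets were removed beyond the lineage limits. Scrublet (scanpy 1.11.5) called 0 cells in each library by its automatic threshold, which does not show that doublets were absent. Removing its highest scores, at 0.8% per 1000 barcodes, was an alternative. It took out 1110, 1112 and 1433 cells, of which 12, 1 and 9 were Myog-positive cells. The software was Python 3.11.15, numpy 2.4.6 and scipy 1.17.1.

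Named genes are those of the lists, the 15 highest and 10 lowest of the class contrast (by the smallest ratio of the libraries, among genes with 400 UMIs), and the 10 highest and 10 lowest of the age and treatment contrasts. Other alternatives changed the Myog minimum, cell filters, UMI minimum, scaling and gates. The members and lists were chosen with earlier results of these data known.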

Additional observations from a re-analysis of the deposited data

How the results depend on the processing

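No paired analysis was possible because each group has 1 library, and for the same reason none could be left out. Alternatives that dropped the lineage limits in both classes, barcodes found in another library or cells over 1% of FAP marker UMIs were chosen after seeing the data. Of the recomputed counts and shares 86 stayed within 1.5-fold or the interval and 33 moved. With a Myog minimum of 1 UMI, 96 genes were lower than in progenitors, 337 higher in old PBS over young PBS and 463 lower in old rMETRNL over old PBS. The share ratio of old over young PBS was 0.475 and the FAP marker median against progenitors turned to 1.32. When cells needed 1000 genes and a mitochondrial share below 5%, 106 genes were higher and 59 lower than in progenitors and 225 lower with age. The share ratio of old rMETRNL over old PBS was 3.24, and the cell cycle positive share 68.4% in young PBS and 75.7% in old rMETRNL. The cell cycle median with age turned to 0.11, and the treatment medians of sarcomere and triad genes to 0.45 and 0.14. Scaling by the mean of per-cell CPM gave 366 genes higher and 366 lower with age and 449 and 306 with treatment. A minimum of 50 UMIs gave 269 and 271 with age and 313 and 326 with treatment. A minimum of 400 UMIs gave 193 and 185 against progenitors, 36 and 26 with age, and 45 and 34 with treatment. With progenitors free of the lineage limits 706 genes were lower, and with both classes free of them 266 were higher with age, the FAP median against progenitors was 0.029 and the Dcn log2 ratio with age -0.66. Without cells over 1% of FAP marker UMIs, 85 genes were higher with age and 105 lower with treatment, the FAP median with age was -0.057, and Dcn was at -0.71 with age and 0.15 with treatment. Thinned to 2000 UMIs with a Myog minimum of 1, the share ratios were 0.477 and 1.44. Without thinning the cell cycle positive shares were 92.8%, 87.2% and 89.5%. The cause was not tested for any of these. Of the list medians 199 kept their direction and size, 20 moved and 6 reversed, and of the values of single named genes 363 kept both, 34 moved and 3 reversed. The 47 cells of old PBS limit both contrasts that use that library.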
